A study of Homo sapiens with 6 samples.

Results

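The genes described here encode complexes II to V of oxidative phosphorylation and the cytochrome c that connects them. They are the protein-coding genes SDHA, SDHB, SDHC, SDHD, CYC1 and CYCS, and every protein-coding gene whose symbol begins with UQCR, COX, ATP5, MT-CO, MT-CYB or MT-ATP. This rule found 67 members among the 58174 genes of the deposited table, 61 of them encoded in the nucleus on 21 chromosomes and 6 in the mitochondrial genome. Since the rule goes by name, it takes in 9 COX-named assembly factors of complex IV, the supercomplex factor COX7A2L and the ATP synthase inhibitor ATP5IF1, which are given apart from the subunits.

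Total RNA of cells labelled AGS, an established line from a human gastric adenocarcinoma, was sequenced in 2 groups of 3 libraries with a stranded kit. The si-NC group received a negative control siRNA and is labelled wild type. The si-FTO group received siRNA against FTO, an RNA demethylase, by its titles and the study's methods, whereas its genotype label reads FTO-/-, and the group means cannot tell which name is right. The deposited values are 1 mean per group in TPM (the share of a gene in all transcripts after correction for its length, scaled to a fixed total), so from the means used here no spread between libraries can be given, no difference given here has a replicate check and the depth is unknown.

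Complex II (succinate dehydrogenase) and complex III pass electrons by way of ubiquinone and cytochrome c to complex IV (cytochrome c oxidase), which reduces oxygen. Complexes III and IV pump protons across the inner mitochondrial membrane, and complex V (ATP synthase) uses their return to make ATP. All subunits of complex II come from nuclear genes, whereas complexes III, IV and V each combine nuclear subunits with a few that are made inside the organelle.

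FTO, the targeted gene, averaged 33.1 TPM in si-NC against 7.27 TPM in si-FTO. Its level in si-FTO was 21.9% of that in si-NC, so FTO itself differed in the direction that the titles name. This value does not tell what else differed between the groups. Changes are given as log2 ratios, si-FTO over si-NC, of the group means with a pseudocount of 1 added to each, which understates the change of genes with low values. On this scale the ratio of FTO was -2.05. Where levels are given in pairs, si-NC comes first, with the log2 ratio in brackets. A gene was compared when its mean TPM was at least 0.5 in at least 1 group, which 20493 genes met, and it was counted as higher or lower when its level differed by at least 2-fold on this scale. A deposited value of 0.0001 was read as 0, and such genes are called listed at 0.

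Over all genes compared the log2 ratio had a median of -0.20, and median-ratio scaling, which assumes that the typical gene does not differ, removes a shift of -0.21 between the groups. Levels below are therefore set against this all-gene median. A log2 ratio of summed TPM gains the same amount under that scaling whatever the genes, so a sum whose ratio lies between that shift and 0 changes sign.

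The markers of the cells were not alike in the groups. Of 16 epithelial markers 11 were compared, of which 8 were higher and 2 lower in si-FTO, and their summed level went from 89.3 to 5389 TPM, led by KRT8 with 10.8 and 3139 TPM. EPCAM and CDH1, which define epithelial cells, had only 1.22 and 3.67 TPM in si-NC and 0.113 and 0.685 TPM in si-FTO, and CDX2 had 18.1 TPM in si-NC and was listed at 0 in si-FTO. KRT19 was listed at 0 in si-NC and had 0.130 TPM in si-FTO. Of the 6 neural markers compared, 5 were lower in si-FTO, and their sum was 438 TPM in si-NC against 0.987 TPM in si-FTO, with UCHL1 at 303 and 0.0204 TPM. The si-NC group thus had more of the neural than of the epithelial markers, and the si-FTO group the reverse. Markers of mesenchymal cells, of which 2 were higher and 1 lower among 6 compared, summed to 456 and 797 TPM, nearly all of it VIM with 439.9 and 752 TPM. The lower marker, COL3A1, was within 2-fold under quantile normalization. The 4 leukocyte markers summed to 1.51 and 6.57 TPM, mostly CD68, with PTPRC listed at 0 in both groups. Of the endothelial markers found, CDH5 was at 0.00827 and 40.9 TPM and VWF at 0.00493 and 0.0537 TPM. The 5 markers of striated muscle, the tissue of some isoforms below, summed to 19.0 and 53.6 TPM, with MB at 0.0508 and 31.9 TPM. Whether both groups are the same cells cannot be told from the group means, and this holds for every ratio given here. The part of these marker differences in the values below was not tested. In bulk RNA, fewer cells of a type and less RNA per cell cannot be told apart.

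Most members were abundant, and nearly all of those compared lay within 2-fold. Of the 67 members, 61 were compared, and 52 of these reached 50 TPM in at least 1 group. Only COX14, an assembly factor of complex IV, was higher in si-FTO by 2-fold, with 76.2 TPM in si-NC against 167 TPM in si-FTO (log2 ratio 1.12). No member was lower by 2-fold. Among all genes compared, 11.4% were higher and 17.0% lower, and among protein-coding genes 12.0% were higher and 19.1% lower. Since most members are abundant, genes with at least 50 TPM in a group were added as a background after the data were seen. Of these 15.1% were higher and 10.8% lower. A gene that is high in only 1 group, such as KRT8, enters this background through that group, which adds to its shares past 2-fold. Within 2-fold lay 98.4% of the members, 71.5% of all genes and 74.1% of the abundant genes.

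**Figure D1:**
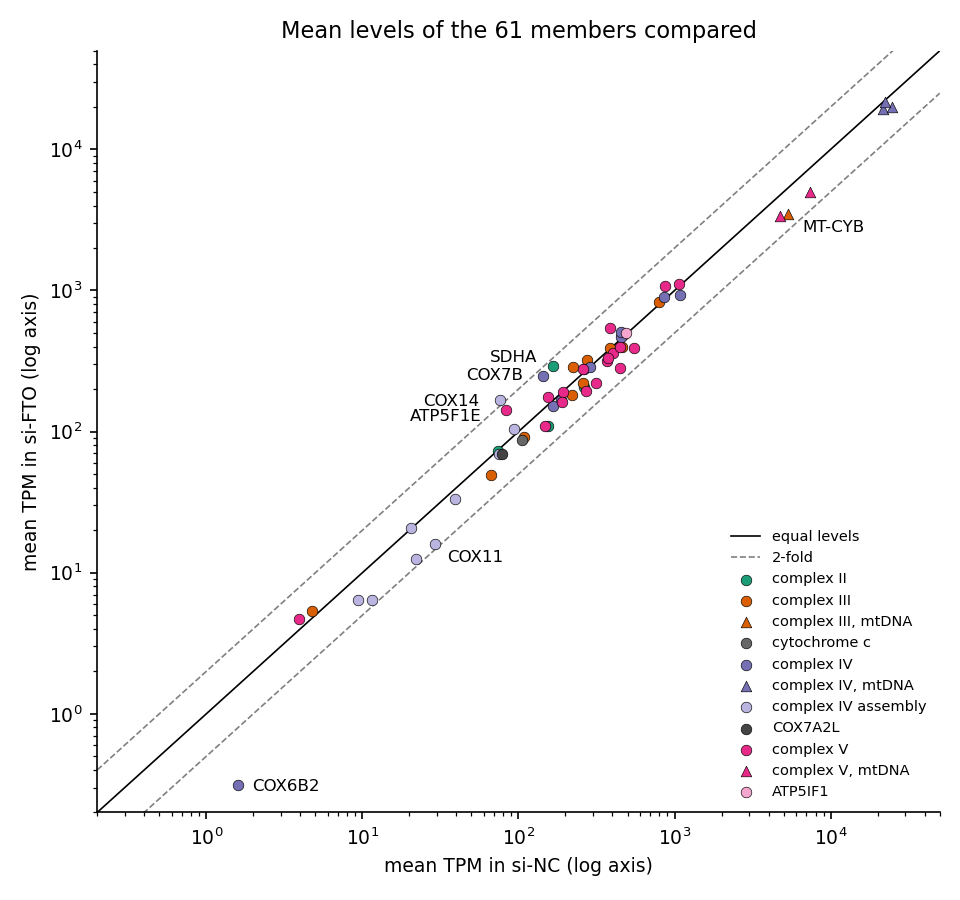
Mean TPM in si-NC (horizontal, log axis) and in si-FTO (vertical, log axis) of the 61 members compared, with circles for nuclear and triangles for mitochondrially encoded (mtDNA) genes, colours for the complexes, a solid line at equal levels and dashed lines at 2-fold without a pseudocount. COX14 (76.2 and 167 TPM) lies above the upper dashed line, while COX6B2 (1.59 and 0.314 TPM) lies below the lower line but within 2-fold once the pseudocount is added.

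A lower threshold of 1.5-fold shows the members at the ends. It was passed upward by 4 members, COX14, SDHA, COX7B and ATP5F1E, beside 18.8% of all genes compared and 21.8% of the abundant genes. It was passed downward by 6 members, COX6B2, COX11, COX20, COX18, ATP5ME and MT-CYB, beside 31.2% of all genes and 24.5% of the abundant genes. The members at the upper end belong to 3 complexes, since SDHA is the catalytic subunit of complex II, COX7B a small subunit of complex IV and ATP5F1E a subunit of the central stalk of complex V. Of the 6 at the lower end, COX11, COX18 and COX20 are assembly factors of complex IV. The median log2 ratio of the 61 members was -0.15, with quartiles at -0.35 and 0.07, against quartiles at -0.74 and 0.38 for all genes. Members above 0 numbered 23, and 36 lay above the all-gene median. Under median-ratio scaling 36 members were above 0, and under quantile normalization 19 were, so the direction of the members depends on the scaling. So does their position against the all-gene median. Under median-ratio scaling the member median was 0.06 against -0.03 for all genes. Under quantile normalization it was -0.17 against -0.07, so the members then lay below the all-gene median. SDHA passed 2-fold as well under median-ratio scaling, with a log2 ratio of 1.03.

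The nuclear members compared had a median mRNA length of 1173 bases, against 3265 for the protein-coding genes compared. These lengths are the summed exons of each gene's Ensembl canonical transcript, such as 8459 bases for UQCRB. The transcripts that these cells express, and the lengths behind the deposited TPM, are not known and may differ from them. The ratios differed with this annotated length, a comparison chosen after the data were seen. Of the nuclear members compared, 43.6% had an mRNA under 1000 bases, against 6.53% of the protein-coding genes compared. The median log2 ratio was 0.04 for the 24 short nuclear members and -0.22 for the 31 longer ones, beside -0.08 for short and -0.23 for longer protein-coding genes. The part of length in the ratios was not tested.

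**Figure D2:**
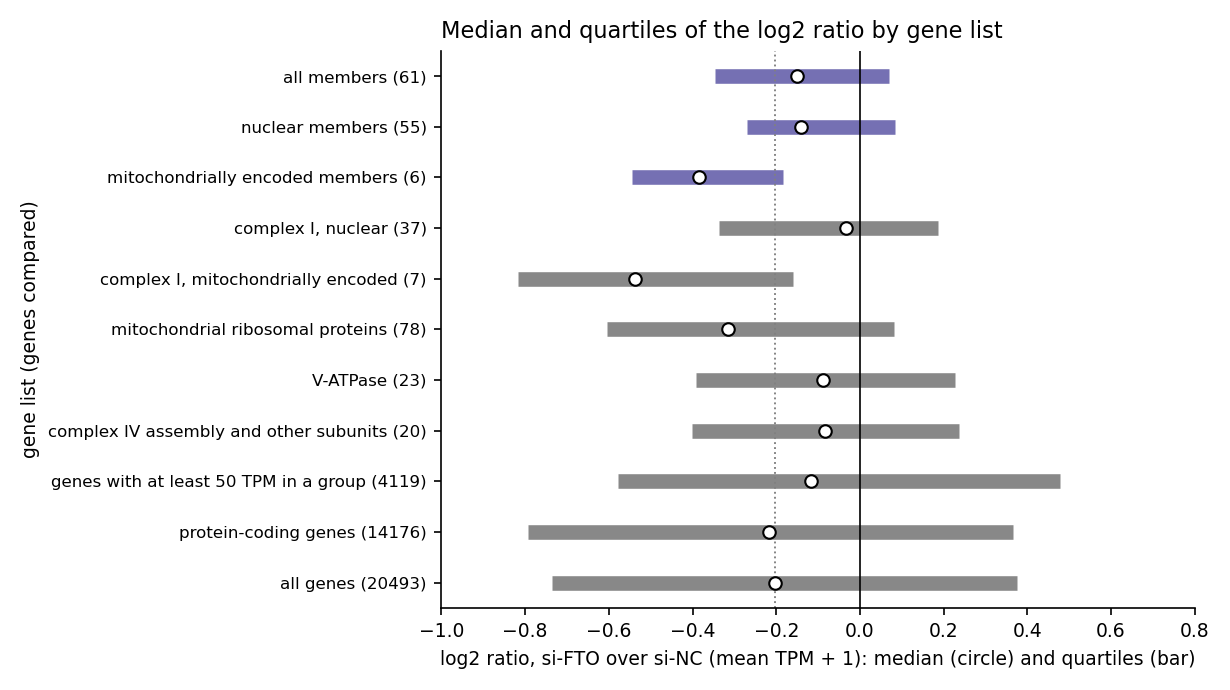
Median (circle) and quartiles (bar) of the log2 ratio, si-FTO over si-NC, for the members (purple) and for comparison groups (grey), with the number of genes compared in brackets, a solid line at 0 and a dotted line at the all-gene median of -0.20. The bar of all members spans 0.41 on the log2 scale, that of the abundant genes 1.06 and that of all genes 1.11; the median of the nuclear members, -0.14, is 0.07 under median-ratio scaling and -0.17 under quantile normalization.

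The promoters of these genes are known for sites of NRF1, of ETS factors such as GABPA, of YY1 and of the CCAAT-binding factor NF-Y. RefSeq windows of GRCh38.p14, from 250 bases before to 50 bases after a start, were given for 47 of the 61 nuclear members, and for 8 of them there were several windows. Windows were searched on both strands for TGCGCA, the core of the NRF1 site, which reads the same on either strand, for GCGCATGC, which after a T contains it, for CCGGAAG (ETS), AAGATGGC (YY1) and CCAAT. Printed here are the 250 bases before the start for the 4 members past 1.5-fold upward, each with 1 window, on the strand of the gene. COX14 lies at chr12:50111986-50112235 on the plus strand, SDHA at chr5:218070-218319 on the plus strand, COX7B at chrX:77899218-77899467 on the plus strand and ATP5F1E at chr20:59032336-59032585 on the minus strand. Capitals mark the letters of TGCGCA, and those of CCAAT on either strand.
COX14: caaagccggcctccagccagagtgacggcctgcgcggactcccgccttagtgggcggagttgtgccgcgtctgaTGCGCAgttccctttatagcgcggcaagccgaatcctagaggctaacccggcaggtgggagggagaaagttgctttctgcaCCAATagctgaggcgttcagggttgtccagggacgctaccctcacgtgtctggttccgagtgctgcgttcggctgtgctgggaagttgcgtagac
SDHA: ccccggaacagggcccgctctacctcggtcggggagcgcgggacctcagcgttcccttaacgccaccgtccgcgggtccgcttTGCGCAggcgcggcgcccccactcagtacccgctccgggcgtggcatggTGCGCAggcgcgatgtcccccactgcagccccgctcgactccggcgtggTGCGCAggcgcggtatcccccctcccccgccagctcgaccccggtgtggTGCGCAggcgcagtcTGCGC
COX7B: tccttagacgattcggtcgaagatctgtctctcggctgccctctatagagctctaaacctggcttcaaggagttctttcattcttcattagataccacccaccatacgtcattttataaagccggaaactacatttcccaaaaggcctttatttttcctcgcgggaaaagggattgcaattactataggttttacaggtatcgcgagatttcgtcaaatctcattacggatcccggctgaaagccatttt
ATP5F1E: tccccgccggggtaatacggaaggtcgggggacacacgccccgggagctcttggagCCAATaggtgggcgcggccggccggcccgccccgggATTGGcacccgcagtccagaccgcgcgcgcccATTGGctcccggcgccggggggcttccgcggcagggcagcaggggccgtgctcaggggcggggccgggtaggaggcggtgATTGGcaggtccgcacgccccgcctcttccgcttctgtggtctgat

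The letters found in these 4 members were as follows. The window of COX14 has TGCGCA 176 bases and CCAAT 95 bases before the start. SDHA has 5 copies of TGCGCA, beginning 167, 118, 69, 20 and 5 bases before the start, so that the first 4 follow each other at steps of 49 bases and the last, of which the print shows all but the final base, crosses the start. As many copies or more were found in 7 of the 35116 windows of the table, or 0.0199%. ATP5F1E has 4 copies of the CCAAT letters, 194 bases before the start on the strand of the gene and 158, 126 and 46 bases before it on the other. COX7B has none of the searched letters in its printed run and CCAAT on the opposite strand 34 bases after the start. Among the members past 1.5-fold downward, TGCGCA was found for COX18, COX20 and ATP5ME but not for COX6B2. COX6B2 has CCAAT 51 bases before the start on the strand of the gene and 76 bases before it on the other. No window was given for COX11.

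Among the 47 members with a window, 15 (31.9%) had TGCGCA, 11 (23.4%) GCGCATGC, 20 (42.6%) CCGGAAG, 6 (12.8%) AAGATGGC and 23 (48.9%) CCAAT. Of the 27305 genes with windows, TGCGCA was found in 9.76%, GCGCATGC in 3.68%, CCGGAAG in 12.2%, AAGATGGC in 3.52% and CCAAT in 39.7%. Of the protein-coding genes compared here, which are the nearer background, the shares were 15.4%, 6.12%, 21.1%, 6.01% and 43.1%. Per window the shares were 8.24% for TGCGCA, 3.05% for GCGCATGC, 10.3% for CCGGAAG, 2.89% for AAGATGGC and 34.6% for CCAAT. A gene was counted when any of its windows held the letters. The median log2 ratio was -0.11 for the 14 compared members with TGCGCA and -0.17 for the 30 without, and -0.13 for the 20 with CCGGAAG and -0.18 for the 24 without. It was -0.15 for the 21 with CCAAT and -0.22 for the 23 without. The order was the other way for GCGCATGC, with -0.35 for the 11 with it and -0.14 for the 33 without, and for AAGATGGC, with -0.26 for the 6 with it and -0.16 for the 38 without. These matches are descriptions of the sequence, and binding was not measured.

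Complex II showed values apart within a complex of only 4 subunits. SDHA, the flavoprotein that oxidises succinate, had 165 TPM in si-NC against 293 TPM in si-FTO (log2 ratio 0.82). SDHB, its iron-sulfur partner in the catalytic part, had 262 and 206 TPM (-0.35). The order of the pair was therefore turned, with SDHA at 0.632 times the level of SDHB in si-NC and at 1.42 times in si-FTO. The membrane anchors SDHC and SDHD bind ubiquinone. SDHC had 73.6 and 72.9 TPM (-0.01), and SDHD 156 and 109 TPM (-0.51). The sum over the complex was 656 TPM in si-NC against 681 TPM in si-FTO (log2 ratio 0.05, but -0.00292 under quantile normalization). The median of the 4 subunits, -0.18, is 0.03 under median-ratio scaling and -0.21 under quantile normalization.

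Reads of SDHA can be shared with its pseudogenes, which resemble it closely. SDHAP1 had 16.7 and 18.0 TPM, SDHAP2 5.47 and 0.0573 TPM, SDHAP3 8.82 and 14.4 TPM, and SDHAP4 36.7 and 24.6 TPM. Each of these was below SDHA in both groups, and how reads were divided among the copies was not tested. The 4 assembly factors of complex II all lay within 2-fold as deposited, with SDHAF2 past it under median-ratio scaling. They ran from SDHAF3 with 33.7 and 21.4 TPM (-0.63) to SDHAF2, which attaches the flavin to SDHA, with 17.3 and 32.9 TPM (0.89). Their median of -0.13 is 0.07 above the all-gene median.

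In complex III the nuclear subunits lay close to equal levels as deposited, and MT-CYB was at the lower end. The 10 nuclear members had a median log2 ratio of -0.09, which is 0.12 under median-ratio scaling and -0.15 under quantile normalization. The median also depends on which members enter. It was -0.20 with a minimum of 50 TPM, chosen after the data were seen, and -0.21 without members with near-identical copies. Both lie near the all-gene median of -0.20. The sum of the 10 was 2798 TPM in si-NC against 2777 TPM in si-FTO. MT-CYB, the cytochrome b that carries both quinone sites and is made in the organelle, had 5293 and 3502 TPM (-0.60). The other subunits with redox centres are nuclear. CYC1, cytochrome c1, had 387 and 392 TPM (0.02), and UQCRFS1, the Rieske iron-sulfur protein, 108 and 92.1 TPM (-0.22). The core proteins lay on either side of equal levels, UQCRC1 with 223 and 288 TPM (0.37), the largest ratio of the complex, and UQCRC2 with 259.7 and 219.6 TPM (-0.24). Among the 6 small subunits the ratios ran from -0.43 for UQCRB, with 66.6 and 49.3 TPM, to 0.23 for UQCRQ, with 274 and 322 TPM.

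The most abundant nuclear subunits were UQCRH, the hinge protein that aids the docking of cytochrome c, with 793 and 826 TPM (0.06), and UQCR10 with 461 and 400.4 TPM (-0.20). UQCRHL, an intronless copy of UQCRH with nearly the same sequence, had 4.76 and 5.32 TPM (0.13), so UQCRH stood at 166 times its level in si-NC and 155 times in si-FTO. Counting may have divided reads between the 2 copies. CYCS, the cytochrome c that shuttles between complexes III and IV, had 105 TPM in si-NC against 87.4 TPM in si-FTO (-0.26), close to the all-gene median. Its ratio ran from -0.29 to -0.05 over the alternative settings. HCCS, the lyase that attaches heme to cytochrome c, had 73.1 and 106 TPM (0.53).

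Among the assembly factors of complex III some passed 2-fold, which no subunit did. Of 6 compared, with a median of -0.16 that is 0.04 above the all-gene median, 2 were lower in si-FTO by 2-fold, as were 17.0% of all genes. Under quantile normalization their median was -0.12, which lay below the all-gene median of -0.07 under that setting. BCS1L, which inserts the Rieske protein, fell from 83.8 to 28.1 TPM (-1.54), and LYRM7, which holds it before insertion, fell from 8.01 to 3.45 TPM (-1.02), but was within 2-fold under median-ratio scaling and quantile normalization. TTC19, which acts on the same protein, had 25.4 and 20.5 TPM (-0.30). The largest ratio among the 6 was that of UQCC3, with 29.2 and 38.7 TPM (0.39).

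Most nuclear subunits of complex IV had similar levels in both groups as deposited. Their median log2 ratio was 0.05 over the 11 compared, 0.25 above the all-gene median, but -0.05 under quantile normalization. Their sum was 4364 TPM in si-NC against 4428 TPM in si-FTO (log2 ratio 0.02, but -0.03 under quantile normalization and -0.00751 with TPM rescaled over nuclear genes). The most abundant were COX6A1 with 1086 and 933 TPM (-0.22) and COX8A with 856 and 905 TPM (0.08). COX4I1, the largest nuclear subunit, had 264 and 276 TPM (0.07). COX7B stood apart with 143 and 247 TPM (0.78). Levels of the 10 nuclear subunits with at least 50 TPM in both groups spanned 7.59 times from lowest to highest in si-NC and 6.19 times in si-FTO.

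Several subunits of complex IV have isoforms that are typical of muscle, lung or testis, and in these cells the general isoform had the higher level of each pair. COX4I2, COX6A2, COX7B2 and COX8C were listed at 0 in both groups, while their partners COX4I1, COX6A1, COX7B and COX8A had at least 143 TPM. COX7A1, the isoform of heart and skeletal muscle, had 0.125 and 0.177 TPM and was not compared. Its partner COX7A2 had 166 and 151 TPM (-0.14), which is 1334 times the level of COX7A1 in si-NC and 854 times in si-FTO. COX6B2, known from testis, had 1.59 TPM in si-NC against 0.314 TPM in si-FTO (-0.98), the smallest ratio of all members as deposited. Its partner COX6B1 had 454 and 469 TPM (0.05), or 286 times as much in si-NC and 1492 times in si-FTO. The ratio of COX6B2 depends on the pseudocount, since its levels are near 1 TPM: with a pseudocount of 0.1 it was -2.03, past 2-fold, and with either rescaling of TPM over nuclear genes -1.07 or -1.10. Under median-ratio scaling it was -0.89 and under quantile normalization -0.74, where COX11 was lower with -0.75. The part of the muscle marker MB, which was higher in si-FTO, was not tested, and the muscle isoforms COX6A2 and COX7A1 were at 0 or below 0.2 TPM.

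With the pseudocount of 1, the 9 COX-named assembly factors had the widest spread among the groups of members, with log2 ratios from -0.82 to 1.12 and a median of -0.23. With a pseudocount of 0.1 they ran from -0.86 to 1.13. The nuclear subunits of complex IV then spread wider, from -2.03 for COX6B2 to 0.79 for COX7B. COX14, which attends newly made COX1 protein, was the only member past 2-fold. COX11, a factor for the copper site of COX1, had 29.2 TPM in si-NC against 16.1 TPM in si-FTO (-0.82). COX20 and COX18, which handle the COX2 protein, had 22.0 and 12.5 TPM (-0.77) and 11.5 and 6.43 TPM (-0.75). The other factors with at least 50 TPM lay near equal levels, COX17, a copper chaperone, with 93.5 and 104 TPM (0.15), and COX15 with 74.9 and 69.4 TPM (-0.11). COX15 acts with COX10 in heme A synthesis, and COX10 had 20.5 and 20.9 TPM (0.02). The median of the assembly factors rests on the genes with low levels: among the 3 with at least 50 TPM it was 0.15, a minimum chosen after the data were seen. COX7A2L, which helps to join complexes III and IV, had 78.7 and 69.5 TPM (-0.18).

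Of 20 further assembly factors and subunits of complex IV outside the naming rule, 2 were higher and 1 lower by 2-fold, against 11.4% and 17.0% of all genes, and under median-ratio scaling 3 were higher. CMC2 rose from 44.2 to 104 TPM (1.22) and CMC1 rose from 17.0 to 35.1 TPM (1.00). SCO2, a copper chaperone for COX2, fell from 24.7 to 4.21 TPM (-2.30). The median of the 20 was -0.08, which is 0.12 above the all-gene median.

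Complex V had the most members counted as subunits, and its nuclear subunits ran from -0.66 to 0.76 around a median of -0.16, which is 0.06 under median-ratio scaling and -0.20 under quantile normalization. Their sum was 6522 TPM in si-NC against 6291 TPM in si-FTO (log2 ratio -0.05, but 0.16 under that scaling). In the catalytic head, ATP5F1B, the beta subunit that carries the active sites, had 1067 and 1119.7 TPM (0.07), the highest level of its nuclear subunits, and ATP5F1A, the alpha subunit, 369 and 314 TPM (-0.23). The enzyme holds both in equal number, while the transcripts of ATP5F1B stood at 2.89 times the level of ATP5F1A in si-NC and 3.56 times in si-FTO. The subunits of the central stalk, which turns inside the head, lay apart: ATP5F1C had 550.3 and 391 TPM (-0.49), ATP5F1D 155 and 175 TPM (0.17), and ATP5F1E 82.9 and 141 TPM (0.76).

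The c-ring, the rotor in the membrane, is encoded by ATP5MC1, ATP5MC2 and ATP5MC3, which yield the same mature protein with different import sequences. ATP5MC1 had 401 and 361 TPM (-0.15), ATP5MC2 388 and 539 TPM (0.47), and ATP5MC3 193 and 192 TPM (-0.01). The leading gene was thus ATP5MC1 with 40.8% of their sum in si-NC and ATP5MC2 with 49.4% in si-FTO. ATP5MC1 made up 33.1% and ATP5MC3 17.5% in si-FTO, after 39.5% for ATP5MC2 and 19.6% for ATP5MC3 in si-NC. The sum of the 3 genes was 982 and 1092 TPM (log2 ratio 0.15).

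The peripheral stalk holds the head still, and 3 of its 4 subunits lay below 0 as deposited and 2 below the all-gene median, with a sum of 1219 TPM in si-NC against 1022 TPM in si-FTO (-0.25). The smallest ratio was that of ATP5PO with 314 and 221 TPM (-0.51), followed by ATP5PF with 271 and 194 TPM (-0.48), whereas ATP5PD had 261 and 277 TPM (0.09). Small subunits of the membrane part, which join the enzyme into dimers, included the smallest ratio of the nuclear subunits of complex V, ATP5ME with 444 and 281 TPM (-0.66), and also ATP5MF with 864 and 1079.6 TPM (0.32). ATP5MG had 148 and 109.6 TPM (-0.43), and its copy ATP5MGL, with 0.00346 and 0.00362 TPM, was not compared. ATP5MF-PTCD1, a readthrough gene that includes ATP5MF, had 3.93 and 4.66 TPM (0.20) and shares exons with it, so their reads cannot be told apart with certainty. ATP5IF1, the inhibitor that stops ATP hydrolysis, had 489 and 500.4 TPM (0.03).

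The 4 assembly factors of complex V had a median of -0.58, which is 0.38 below the all-gene median, and 1 of them was lower by 2-fold, against 17.0% of all genes. ATPAF1, which binds the beta subunit before assembly, fell from 73.6 to 31.5 TPM (-1.20), but was within 2-fold under median-ratio scaling. The largest ratio was that of ATPAF2, which binds the alpha subunit, with 24.97 and 27.05 TPM (0.11).

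**Figure D3:**
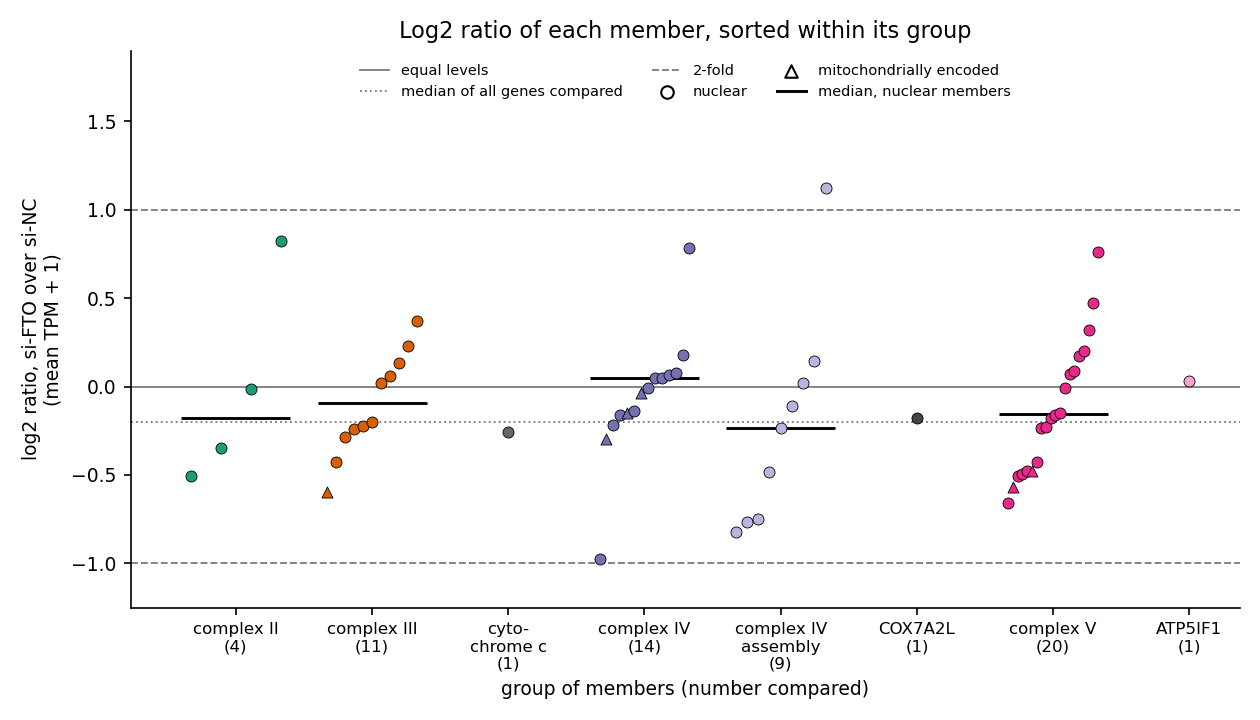
Log2 ratio, si-FTO over si-NC, of each of the 61 members compared (vertical), sorted within its group (horizontal, number compared in brackets), with circles for nuclear and triangles for mitochondrially encoded genes, bars at the nuclear medians, dashed lines at 2-fold and a dotted line at the all-gene median of -0.20. Only COX14 (1.12) passes a dashed line, and the nuclear medians lie at -0.18, -0.09, 0.05, -0.23 and -0.16 for complexes II, III, IV, IV assembly and V; those of II, III and V are above 0 under median-ratio scaling, and that of IV is below 0 under quantile normalization.

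The mitochondrially encoded members made up most of the transcripts of the complexes. Their sum was 85992 TPM in si-NC against 73219 TPM in si-FTO, or 8.60% and 7.32% of all TPM, while the nuclear members summed to 15389 and 15269.5 TPM, or 1.54% and 1.53%. All 6 lay below 0 as deposited, with a median log2 ratio of -0.39, and 4 lay below the all-gene median. Under median-ratio scaling the median stayed below 0 at -0.17, whereas MT-CO1 and MT-CO3 changed sign, to 0.07 and 0.17. These genes are transcribed together from 1 small genome, so they are not independent of each other.

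Subunits of complex IV made in the organelle had the highest levels and, among the members of this genome, the ratios nearest to 0. MT-CO1, which holds the site of oxygen reduction, had 21509.8 TPM in si-NC against 19429 TPM in si-FTO (-0.15). MT-CO2, which receives electrons from cytochrome c, had 24653 and 20077 TPM (-0.30). MT-CO3 had 22416 and 21818 TPM (-0.04). The genes of complex V and III lay lower, at ratios close to each other. MT-ATP6, which forms the proton path beside the c-ring, had 4719 and 3395 TPM (-0.47), MT-ATP8 7401 and 4998 TPM (-0.57), and MT-CYB the -0.60 given above. MT-ATP8 and MT-ATP6 overlap by 46 bases in the GRCh37 reference and share a transcript. As deposited, MT-ATP8 stood at 1.57 times the level of MT-ATP6 in si-NC and 1.47 times in si-FTO. A nuclear copy of MT-ATP6, MTATP6P1, was listed with 2823 and 1951 TPM, whereas MTATP8P1, a copy of MT-ATP8, had 0.979 and 0.578 TPM. Reads of MT-ATP6 may have been given to its copy, which would raise the quotient, and their division was not tested.

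Set by origin, the mitochondrial sum was larger than the nuclear sum in both groups for complexes III, IV and V, which have genes of both origins. In complex III the mitochondrial sum was 1.89 times the nuclear sum in si-NC and 1.26 times in si-FTO. In complex IV it was 15.7 and 13.9 times, and in complex V 1.86 and 1.33 times. Median-ratio scaling leaves these quotients as they are, since it scales both sums of a group alike. On the log2 scale the mitochondrial ratio minus the nuclear ratio was -0.58 for complex III, -0.48 for complex V and -0.18 for complex IV. The mitochondrial sums were 68579 and 61324 TPM in complex IV (-0.16, but 0.05 under median-ratio scaling) and 12119.6 and 8392 TPM in complex V (-0.53).

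**Figure D4:**
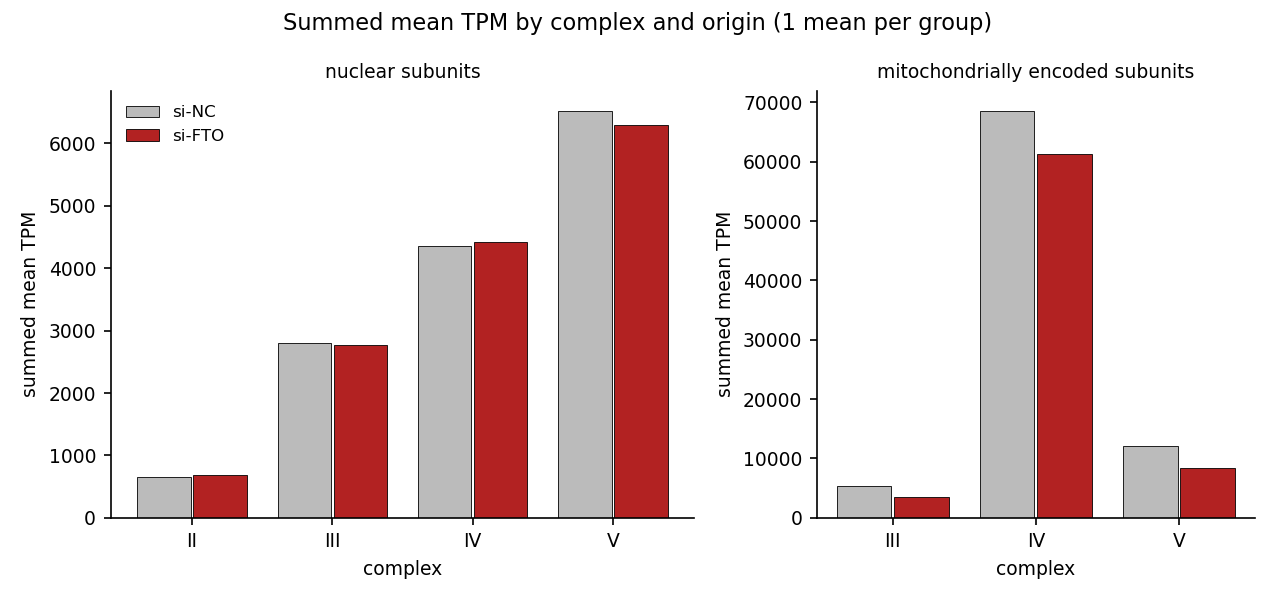
Summed mean TPM of nuclear subunits (left) and of mitochondrially encoded subunits (right, on its own scale) by complex, with grey bars for si-NC and red bars for si-FTO, each bar a sum of the group means. Nuclear sums are nearly level, as in complex V with 6522 and 6291 TPM, while the mitochondrial sum of complex V is 12119.6 TPM in si-NC against 8392 TPM in si-FTO; the sum of complex IV on the right, 68579 and 61324 TPM, changes direction under median-ratio scaling.

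The other genes of the mitochondrial genome were set beside the members. Its 7 other protein-coding genes are those of complex I, and 6 of them lay below 0 as deposited and 5 below the all-gene median. They had a median of -0.54, from MT-ND3 with 3540.2 and 1793 TPM (-0.98) to MT-ND4L with 8907 and 9698 TPM (0.12). MT-ND6, the only protein-coding gene of the light strand, had 1557 and 799 TPM (-0.96). The ribosomal RNAs went apart, MT-RNR1 with 1676 and 1060.3 TPM (-0.66) and MT-RNR2 with 4209 and 5678 TPM (0.43). Of the 22 transfer RNA genes 15 lay below 0, and MT-TF, with 106 and 43.2 TPM (-1.28), was the only gene of this genome past 2-fold as deposited. Under quantile normalization MT-ND3 and MT-ND6 were also lower by 2-fold. The members thus lay inside the range of their neighbours in that genome, and the 37 genes together took 14.3% of all TPM in si-NC and 12.5% in si-FTO.

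**Figure D5:**
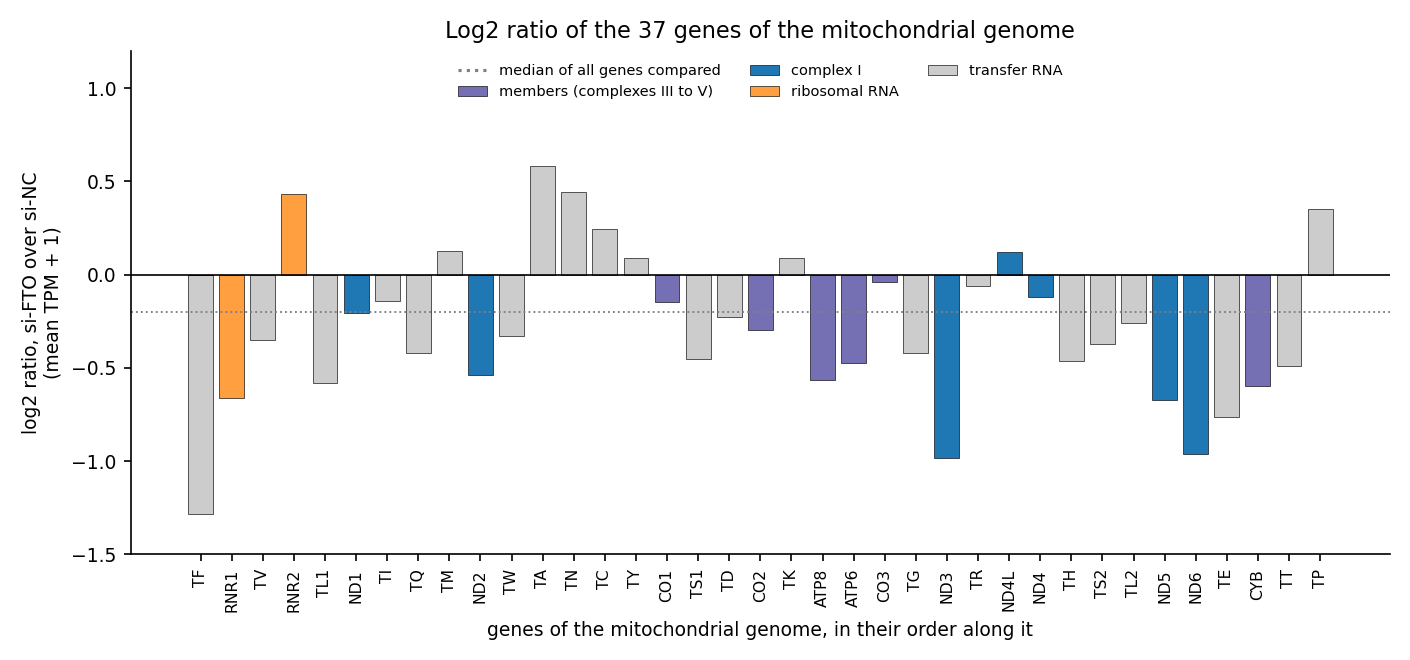
Log2 ratio, si-FTO over si-NC (bars, vertical), of the 37 genes of the mitochondrial genome in their order along it (horizontal, names without the prefix MT-), coloured by class, with a dotted line at the all-gene median of -0.20. The members (purple) run from CYB at -0.60 to CO3 at -0.04, and CO1 and CO3 lie above 0 under median-ratio scaling.

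Copies of mitochondrial genes in the nuclear genome can take reads from the members. The table lists 187 such copies of these 6 genes, which together summed to 4182 TPM in si-NC against 3485 TPM in si-FTO, and 8 of them were compared. The most abundant was MTATP6P1 with 2823 and 1951 TPM, beside 4719 and 3395 TPM for MT-ATP6, and MTCO1P12 had 1212 and 1425 TPM. The levels of MT-ATP6 and MT-CO1 are therefore uncertain to that extent. Nuclear members have copies as well. Beside the copies of SDHA given above, 121 pseudogenes carry the prefixes of the naming rule, but 62 of these were listed at 0 in both groups and all together summed to 77.7 and 63.7 TPM. The most abundant of them was UQCRFS1P1 with 35.5 and 27.7 TPM, beside 108 and 92.1 TPM for UQCRFS1, whose level is uncertain to that extent. The count leaves out copies of SDHB, SDHC, SDHD, CYC1 and CYCS, whose names the rule takes whole. Of the copies of SDHB, SDHC and SDHD, the most abundant was SDHDP6 with 1.73 and 1.76 TPM. Copies of CYC1 and CYCS were not examined.

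Members at the ends of the range were set beside the genes next to them on the chromosome, a comparison chosen after the data were seen. For the 4 nuclear members at either end, up to 5 genes on each side with at least 10 TPM were taken, without regard to strand. Of all genes compared, 8214 of 20493 lay above 0 and 12279 below. The neighbours of COX14 had a median log2 ratio of 0.73, with 7 of 10 above 0, and those of SDHA a median of 0.57, with 4 of 5. SDHA lies near the end of its chromosome arm, so it had 5 such neighbours, all on the same side, among them PDCD6 with 114 and 311 TPM (1.44). The medians were 0.40 beside ATP5F1E, with 8 of 10 above 0, and 0.31 beside COX7B, with 6 of 10. At the lower end the medians were -0.70 beside COX11, with 8 of 10 below 0, -0.59 beside COX6B2 and -0.40 beside COX18, each with 9 of 10. Beside COX20 the median was -0.33, with 6 of 10 below 0 and the widest range of ratios among these 4. Neighbours of other genes were not examined. What the members share with their neighbours was not tested.

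Overlapping genes limit some of these values. Of the members, 30 overlap another gene that was compared, 14 of them on the same strand and 19 on the opposite strand. On the opposite strand COX11 overlaps TOM1L1 (75.9 and 35.6 TPM), and COX20 overlaps HNRNPU (463 and 361 TPM) by 4420 bases. The kit marks the strand, but whether the counting used it is not given in the sources used here, so reads of such pairs cannot be told apart with certainty.

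Other gene groups of the same organelle and a related enzyme give the scale of these ratios. The 37 nuclear genes listed for complex I, among them the readthrough gene NDUFC2-KCTD14 with 1.16 and 2.01 TPM, had a median of -0.03. Within 2-fold as deposited lay all but NDUFS6, which rose from 109.97 to 229 TPM (1.05), and NDUFA3, which fell from 307 to 143 TPM (-1.09). Under median-ratio scaling 3 were higher and 0 lower, and under quantile normalization 0 higher and 2 lower. Of 78 mitochondrial ribosomal proteins, with a median of -0.31, none were higher by 2-fold and 5 were lower, against 11.4% and 17.0% of all genes, whereas under median-ratio scaling 1 was higher and 1 lower. Those lower as deposited were MRPS33 with 59.4 and 12.4 TPM (-2.17), MRPL39 with 85.3 and 36.4 TPM (-1.21), MRPL41 with 93.0 and 42.6 TPM (-1.11), MRPL55 with 84.3 and 39.9 TPM (-1.06) and MRPL44 with 69.2 and 33.3 TPM (-1.03). The largest ratio was that of MRPL17 with 47.1 and 88.1 TPM (0.89). Among 23 compared genes with names of the V-ATPase, a rotary proton pump of lysosomes built like complex V, with a median of -0.09 that is 0.11 above the all-gene median, 2 were higher and 2 lower, with 1 lower under median-ratio scaling: ATP6V0A4 rose from 0.0140 to 3.37 TPM (2.11) and ATP6V1C2 from 4.37 to 14.8 TPM (1.56), whereas ATP6V0A1 fell from 86.8 to 33.1 TPM (-1.36) and ATP6V1F from 527 to 259.96 TPM (-1.02). The members of complexes II to V had 1 such gene among 61 as deposited.

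Of 14 regulators of mitochondrial biogenesis, which include factors of the NRF1, ETS and YY1 sites above but none of NF-Y, 2 were higher and 1 was lower by 2-fold, against 11.4% and 17.0% of all genes. Under median-ratio scaling 3 were higher. PPARGC1A, a coactivator of NRF1, rose from 3.02 to 13.9 TPM (1.89) and ESRRA from 38.3 to 83.4 TPM (1.10), while the related coactivator PPARGC1B fell from 20.7 to 4.28 TPM (-2.04). NRF1 itself had 23.3 and 21.7 TPM (-0.10), against a median of the 14 of -0.14. The nuclear members of complexes II to V, with their median of -0.14, did not pass 2-fold as deposited, apart from COX14.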

How the data were processed

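RNA of AGS cells was sequenced on an Illumina HiSeq instrument from 3 si-NC and 3 si-FTO libraries. The study's methods name Bowtie and RSEM and the submitters' processing notes HISAT2, both with hg19; which made the table, and its annotation, are not given in the sources used here. The deposited table gives TPM as 1 mean for each group. It also gives for each gene the authors' own log2 ratio with its p-value and q-value, and those columns were not used. TPM keeps no depth, so precision is unknown and no interval is given. A limma fit was planned in case the table held values per library, which it does not.

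Identifiers were matched to symbols for 55726 of 58174 genes. The si-NC means summed to 999970 TPM, with 26830 genes listed at 0, and the si-FTO means to 999957 TPM, with 29534 genes listed at 0. Gene type and position come from GENCODE release 44 lifted to GRCh37, and promoter sequences from RefSeq (GRCh38.p14). Log2 ratios used a pseudocount of 1 and a minimum of 0.5 TPM in a group, without a test, since 1 value per group allows none. Members and lists were chosen with earlier results of these data known. Named are each member past 2-fold, per complex the 2 most abundant and the largest and smallest ratio, isoform partners, all mitochondrially encoded members, CYCS and FTO, and of other lists the extremes and, where 5 or fewer, those past 2-fold; any other gene named was chosen after its values were seen.

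Alternatives were a pseudocount of 0.1, no filter or a minimum of 5 or 50 TPM, median-ratio scaling, quantile normalization, rescaling of TPM over nuclear or nuclear protein-coding genes, a 1.5-fold threshold, subunits alone, and members without near-identical copies. Python 3.11.15 with numpy 2.4.6, pandas 2.3.3 and matplotlib 3.10.9 was used. The calculations were run on simulated data with large changes in genes of at least 50 TPM in si-NC. Low values and small ratios were not covered by that check.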

Additional observations from a re-analysis of the deposited data

How the results depend on the processing

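A value was counted as moved when it shifted by over 0.1 on the log2 scale, and a count when it differed by over 1.5 times. By this measure 101 of the results over members and alternatives stayed and 28 moved. Median-ratio scaling moved most, by its construction, since it multiplies a whole group. Under it the log2 ratio of summed TPM was 0.27 for complex II, 0.20 for nuclear and -0.38 for mitochondrial genes of complex III, 0.23 and 0.0508 for those of complex IV, and 0.16 and -0.32 for those of complex V. The nuclear medians were then 0.0304 for complex II, 0.12 for III, 0.26 for IV, -0.0271 for IV assembly and 0.0553 for V, with 0.0708 over all nuclear and -0.17 over mitochondrial members, and 2 members were higher. Genes lower and higher made up 14.1% and 13.6% of all genes compared, against 17.0% and 11.4% as deposited. Quantile normalization gave a mitochondrial sum of -0.49 for complex III and a mitochondrial median of -0.25, and the nuclear median of complex IV was -0.0463; the cause was not tested. Its mitochondrial sum of 0.00 for complex IV follows from the method, since MT-CO1, MT-CO2 and MT-CO3 have the 3 highest values in both groups, and says nothing about that difference. With a minimum of 50 TPM, added after the data were seen, the medians were -0.20 for complex III and 0.15 for IV assembly, and without near-identical copies that of complex III was -0.21, since fewer genes enter. Without a filter the nuclear median was -0.00715, since 6 more members enter, 4 of them listed at 0. At 1.5-fold 4 members were higher and 6 lower, and among subunits alone 0 were higher, since COX14 is left out. With a pseudocount of 0.1 and with either rescaling over nuclear genes, 1 member was lower, COX6B2, at -2.03, -1.07 and -1.10. Of the log2 ratios of FTO and the 61 members, 481 stayed on their side of 2-fold and 4 newly passed it, those of COX6B2 and SDHA, while COX14 and FTO stayed past it.

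No paired analysis was possible because the table gives 1 mean per group; for the same reason leaving out each library in turn was not run. The group means used here give neither the depth nor the error between libraries, and the authors' p-values were not used, so small ratios cannot be told from noise here.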
